A study of Mus musculus with 14 samples.

Results

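Prmt5 and the genes of its methylosome partners, Wdr77, Clns1a, Riok1 and Coprs, were followed in 14 RNA sequencing libraries from mouse blood-forming cells in which Prmt5 had been deleted or left intact. The 5 genes were picked by symbol from the 45706 gene rows of the deposited tables, and each symbol had 1 row. All 5 passed the filter on low counts in the 3 main models, and Coprs did not pass it in the alternative that fits Ter119pos alone. KO fetal liver cells of stage E14.5 came from Vav-cre;Prmt5fl/fl mice, and WT fetal liver cells from Prmt5fl/fl mice without Cre. Vav-cre is a recombinase driven by a promoter active across blood cells. Both were sorted into a Ter119pos fraction, which carries a surface antigen of maturing erythroid cells, and a Ter119neg fraction. KO LK cells came from Mx1-cre;Prmt5fl/fl mice, in which interferon switches the recombinase on, and WT LK cells from Prmt5fl/fl mice without Cre. LK cells of both genotypes were taken 7 days after poly(I:C), an inducer of interferon. The floxed allele was thus common to KO and WT, and Cre was carried by KO alone. The 4 fetal groups held 2 libraries each, lettered A and B, from 5 mice. Mice 1 and 2 gave both KO fractions and mouse 4 gave both WT B libraries, while mouse 3 gave Ter119neg WT A and mouse 5 gave Ter119pos WT A. The 2 LK groups held 3 libraries each, lettered A, B and C. What an LK letter stands for, and whether LK libraries came from separate mice, is not stated in the labels, so LK p-values measure the spread between these libraries.

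PRMT5 is a type II protein arginine methyltransferase: it places symmetric dimethyl marks on arginines of histones and of the Sm proteins that form the core of spliceosomal snRNPs. It works in a hetero-octamer with the WD-repeat protein WDR77, also known as MEP50, which presents substrates to it and is needed for its full activity. Adaptor proteins then bring in particular clients. CLNS1A, also known as pICln, carries Sm proteins, RIOK1 brings nucleolin and takes the place of CLNS1A on the enzyme, and COPRS directs the complex to histones. In blood formation PRMT5 is known to be needed for stem and progenitor cells.

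The adaptors meet PRMT5 through a short peptide, known as the PRMT5-binding motif, that begins with glycine, glutamine and phenylalanine and goes on with acidic residues. The bases that code for it in the members are shown here because the motif is a known trait of the adaptors. The pattern searched was glycine, glutamine, phenylalanine, an acidic residue, aspartate, alanine or glycine, and an acidic residue. A search of the coding sequences of 21614 mouse genes in GENCODE M21 found the 7-residue motif in 3 genes, or 0.0139% of those searched. All 3 were members. The motif is defined by these adaptors, so the search locates it in them and is no independent evidence about them. The capitals mark the codons of the motif, read along the coding strand.

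Clns1a: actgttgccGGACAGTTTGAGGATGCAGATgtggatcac

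Coprs: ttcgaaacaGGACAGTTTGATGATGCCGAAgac

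Riok1: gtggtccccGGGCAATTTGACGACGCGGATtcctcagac

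In Clns1a the motif lay near the carboxyl end, at residues 232 to 238 of 241 (chr7:97716486-97716506, plus strand, GRCm38). In Coprs it was also near the end, at residues 166 to 172 of 173 (chr8:13885038-13885058, minus strand, GRCm38). In Riok1 it lay near the amino end, at residues 14 to 20 of 567 (chr13:38037500-38037520, plus strand, GRCm38). No match was found in Wdr77 or in Prmt5 itself. A match in the letters is a description and was not tested for binding here.

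The RefSeq promoter windows, 250 bases before to 50 after the annotated start, were searched on both strands for CCAAT and for the E-box CACGTG. An entry was found for 4 members, all but Coprs, in the table, which is of build GRCm38.p6. The windows of Prmt5 and Wdr77 are printed because these were the 2 members with lower transcript levels in KO than in WT fetal cells, and the capitals mark the searched letters on either strand.

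Prmt5: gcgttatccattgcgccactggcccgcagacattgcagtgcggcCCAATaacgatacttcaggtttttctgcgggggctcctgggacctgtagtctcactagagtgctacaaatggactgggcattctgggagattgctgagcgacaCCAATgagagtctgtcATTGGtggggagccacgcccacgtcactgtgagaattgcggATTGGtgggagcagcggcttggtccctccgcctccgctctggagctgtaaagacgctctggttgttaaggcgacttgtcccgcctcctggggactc

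Wdr77: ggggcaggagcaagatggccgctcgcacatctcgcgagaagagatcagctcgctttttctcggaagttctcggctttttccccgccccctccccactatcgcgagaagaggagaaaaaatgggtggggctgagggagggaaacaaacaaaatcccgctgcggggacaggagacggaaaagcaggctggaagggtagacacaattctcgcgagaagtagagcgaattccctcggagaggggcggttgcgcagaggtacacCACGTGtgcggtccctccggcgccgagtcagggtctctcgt

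The Prmt5 window (chr14:54517421-54517720, minus strand) held 4 CCAAT matches and no CACGTG. Of 32817 mouse promoter windows of the same length, 37.4% held CCAAT at least once and 1.06% held it 4 or more times. The Wdr77 window (chr3:105959248-105959547, plus strand) held no CCAAT and 1 CACGTG, which 7.15% of windows hold. The Clns1a window likewise held 1 CACGTG and no CCAAT, and the Riok1 window held neither. Neither motif was found in both of the printed windows. Prmt5 is the deleted gene, and the part of these matches in the level of any member was not tested.

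Total counts ran from 19514550 to 30976961 per library. Levels are CPM (counts scaled to library size) after TMM normalisation, with the fetal and LK libraries scaled separately, and a gene is called where edgeR's quasi-likelihood test, adjusted over all genes tested by Benjamini-Hochberg, gave p under 0.05. Defining markers of the labelled populations were present. The summed level of 8 progenitor markers was 1240 to 1700 CPM in LK KO and 1120 to 1250 CPM in LK WT libraries. That of 12 erythroid markers was 337000 to 441000 CPM in Ter119pos KO and 306000 to 341000 CPM in Ter119pos WT libraries. The globin gene Hbb-bs alone gave 131000 to 170000 CPM of it in KO, so the sum hides the other markers. Of the 12, 4 were called lower and 1 higher in Ter119pos KO, where 54.2% of all genes were called. The log2 fold change was -1.48 for Slc4a1, -1.25 for Tfrc, -1.25 for Tspan33, -1.02 for Epor and 0.66 for Klf1. In Ter119neg the erythroid sum was 1120 to 1740 CPM in KO and 815 to 897 CPM in WT libraries. The Ter119pos groups also differed in make-up. Small nuclear and cytoplasmic RNAs of the Rn7s and Rn7sk genes took 31.1 to 32.2% of counts in Ter119pos KO and 5.71 to 5.90% in Ter119pos WT libraries, and globin RNA took 16.4 to 18.3% in KO and 24.6 to 25.1% in WT. In bulk samples, fewer cells of a type and less RNA per cell cannot be told apart.

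Prmt5 (ENSMUSG00000023110, chr14:54507187-54517525, minus strand), the deleted gene and the catalytic subunit, was far below WT in all 3 populations, by an amount that differed between the fetal fractions. In LK cells it stood at 11.7, 12.3 and 10.5 CPM in KO libraries A, B and C, against 110.2, 63.1 and 69.9 CPM in WT. In Ter119neg cells it stood at 4.51 and 4.26 CPM in KO, against 52.3 and 51.8 CPM in WT. In Ter119pos cells it stood at 3.64 and 4.92 CPM in KO, against 13.8 and 17.7 CPM in WT. No KO library reached its WT group in any population, and A was the highest of the LK WT libraries.

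The log2 fold change of Prmt5, KO over WT, was -2.81 (SE 0.28, adjusted p = 0.00669) in LK, -3.57 (SE 0.15, adjusted p = 1.45e-07) in Ter119neg and -1.89 (SE 0.18, adjusted p = 2.31e-06) in Ter119pos cells by edgeR. KO cells thus kept 14.2% of the WT level in LK (95% interval 9.03 to 22.4%), 8.43% in Ter119neg (6.73 to 10.6%) and 26.9% in Ter119pos (20.6 to 35.2%). The KO effect in Ter119pos minus that in Ter119neg was 1.67 (SE 0.24, adjusted p = 0.000174), so the remaining share was larger in Ter119pos. It passed the test in both fits that block on the letter or the mouse as well. After adjustment the LK effect was not separated from either fetal effect, in a model with no block for the letters that LK libraries share. It differed by 0.76 from Ter119neg (95% interval -0.05 to 1.57, adjusted p = 0.807) and by -0.999 from Ter119pos (-1.84 to -0.16, adjusted p = 0.0908). The last call was gained when LK WT B was left out (adjusted p = 0.0299). The LK call in turn rested on all 3 KO libraries. Leaving out A, B or C gave adjusted p of 0.0715, 0.0531 and 0.0611 with log2 fold changes of -2.83, -2.86 and -2.75, and leaving out both C libraries gave 0.0965. With the letter as a block it was -2.78 (adjusted p = 0.000591).

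**Figure D1:**
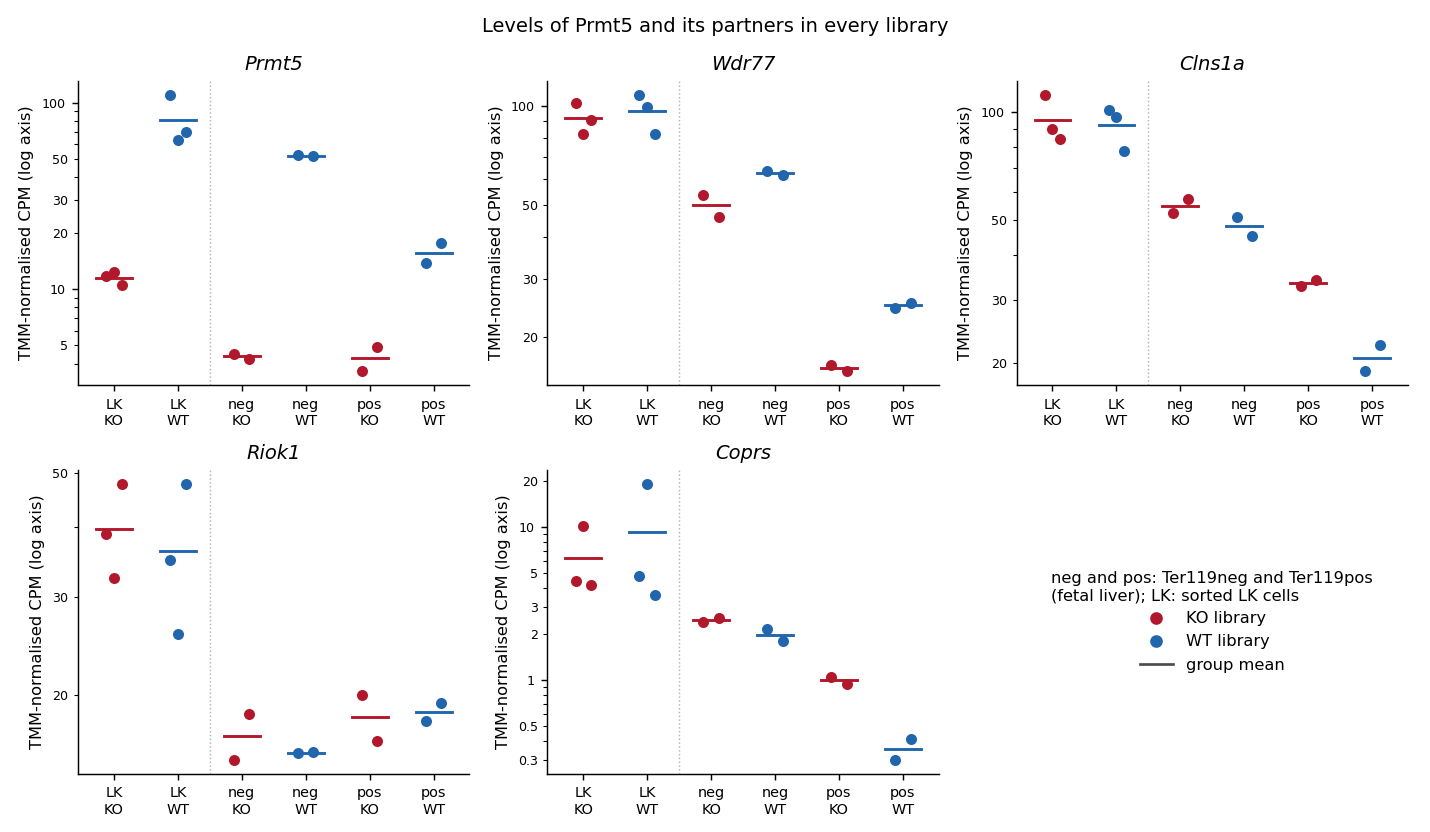
TMM-normalised CPM on log axes (y) of each member in every library (points) of the 6 groups (x), with KO in red left of WT in blue and the group mean as a line. LK and fetal libraries were scaled separately and are parted by a dotted line. Every Prmt5 KO point lies below its WT group, while the Riok1 points of KO and WT overlap in each population.

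On a scale common to all 14 libraries, the order of the 6 groups by Prmt5 level, lowest first, was Ter119pos KO at 5.99 ± 1.23 CPM, Ter119neg KO at 6.27 ± 0.25 CPM, LK KO at 7.24 ± 0.81 CPM, Ter119pos WT at 21.4 ± 3.7 CPM, LK WT at 51.8 ± 19.1 CPM and Ter119neg WT at 76.3 ± 1.2 CPM (SD, n = 3 for LK and n = 2 for fetal groups). The 3 KO groups overlapped with their neighbours in that order, from 5.12 to 7.88 CPM over their 7 libraries. The WT groups did not overlap with their neighbours, and spanned 18.8 to 77.2 CPM. Tissue, Cre line, RNA kit and time since deletion differ between LK and fetal cells and cannot be told apart on this scale. Nor can gene-level counts tell cells that escaped deletion from transcripts of the recombined allele.

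Wdr77 (ENSMUSG00000000561, chr3:105959369-105970037, plus strand), the obligate cofactor, was the only partner lower in KO cells by the test under TMM scaling, and was so in fetal cells. Under total counts Riok1 was called lower in Ter119pos KO as well (-0.91, adjusted p = 0.000454). In Ter119pos cells Wdr77 stood at 16.5 and 15.7 CPM in KO, against 24.5 and 25.4 CPM in WT. In Ter119neg cells it stood at 53.8 and 46.2 CPM in KO, against 63.6 and 61.9 CPM in WT. In LK cells it stood at 102.5, 82.5 and 91.2 CPM in KO, against 108.3, 99.4 and 82.5 CPM in WT. KO and WT libraries were apart in both fetal fractions and overlapped in LK.

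The log2 fold change of Wdr77 was -0.63 (SE 0.12, adjusted p = 0.000595) in Ter119pos and -0.33 (SE 0.10, adjusted p = 0.041) in Ter119neg cells by edgeR, or 64.6% and 79.7% of the WT level. In LK cells it was -0.07 (95% interval -0.56 to 0.42, adjusted p = 0.887). The LK effect on Wdr77 was not separated from either fetal effect by edgeR, again with no letter block. It differed by 0.28 from Ter119neg (95% interval -0.27 to 0.82, adjusted p = 0.923) and by 0.50 from Ter119pos (-0.05 to 1.06, adjusted p = 0.183). The Ter119neg call was weak. It was lost when TMM was computed over protein-coding genes (adjusted p = 0.0544), in a model of that fraction alone (0.0646) and without KO B (0.279), WT A (0.159) or WT B (0.099). The difference between the fetal effects did not pass the test (-0.30, 95% interval -0.64 to 0.03, adjusted p = 0.135), though it did under total counts (-0.89, adjusted p = 0.0137). Gm42890, a processed transcript on the same strand, shares 10535 bases with Wdr77, introns included, and had 310 counts in total over the 14 libraries. Wdr77 also shares 731 bases with Atp5f1, a subunit gene of the mitochondrial ATP synthase on the opposite strand. Atp5f1 was higher in Ter119pos KO than in WT cells, with a log2 fold change of 1.10 (adjusted p = 4.04e-05), the other way from Wdr77. The strand setting of the counting is not given in the sources used here, so reads from the shared bases could not be assigned with certainty.

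Clns1a (ENSMUSG00000025439, chr7:97696634-97720796, plus strand), the adaptor for Sm proteins, was higher in Ter119pos KO cells under TMM scaling, though not under total counts. It stood at 32.8 and 33.99 CPM in Ter119pos KO, against 19.0 and 22.4 CPM in Ter119pos WT libraries. In Ter119neg cells it stood at 52.3 and 57.3 CPM in KO, against 51.2 and 45.1 CPM in WT. In LK cells it stood at 111.7, 89.5 and 84.1 CPM in KO, against 101.7, 96.9 and 78.0 CPM in WT. KO lay above WT in both fetal fractions, by a narrow margin in Ter119neg, and overlapped with it in LK.

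The log2 fold change of Clns1a was 0.69 (SE 0.12, adjusted p = 0.000418) in Ter119pos, 0.19 (SE 0.11, adjusted p = 0.266) in Ter119neg and 0.05 (SE 0.22, adjusted p = 0.933) in LK cells by edgeR. The Ter119pos effect exceeded the Ter119neg effect by 0.50 (SE 0.16, adjusted p = 0.0277). That difference was 0.29 with the mouse as a block (adjusted p = 0.124), and it also missed the threshold without Ter119pos KO A (0.0562), KO B (0.088) or WT A (0.119). The direction of Clns1a in Ter119pos depends on the scaling. Under total counts alone the median gene stood at -0.93 on the log2 scale in Ter119pos, KO over WT, and Clns1a had -0.21 (adjusted p = 0.388). Relative to the median gene, Clns1a was 0.73 higher under TMM and 0.72 higher under total counts. The other members likewise kept their place relative to that median in Ter119pos, with Prmt5 at -1.85 and -1.86, Wdr77 at -0.59 under both, Riok1 at 0.02 under both and Coprs at 1.52 and 1.53.

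Riok1 (ENSMUSG00000021428, chr13:38036995-38061433, plus strand), the adaptor that competes with CLNS1A and also acts in maturation of the small ribosomal subunit, showed no difference between genotypes that passed the test under TMM scaling. It stood at 20.02 and 16.6 CPM in Ter119pos KO, against 18.04 and 19.4 CPM in Ter119pos WT libraries. In Ter119neg cells it stood at 15.3 and 18.6 CPM in KO, against 15.8 and 15.8 CPM in WT. In LK cells it stood at 38.8, 32.5 and 47.8 CPM in KO, against 34.9, 25.8 and 47.8 CPM in WT. KO and WT overlapped in all 3 populations. The log2 fold change was -0.03 (95% interval -0.33 to 0.28) in Ter119pos, 0.10 (-0.18 to 0.38) in Ter119neg and 0.13 (-0.53 to 0.80) in LK cells. Changes of the size seen for Clns1a in Ter119pos lie outside the fetal intervals and inside the LK interval.

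Coprs (ENSMUSG00000031458, chr8:13884794-13890281, minus strand), the histone adaptor, was the least abundant member. In Ter119pos cells it had 15 and 11 counts in KO (1.05 and 0.95 CPM), against 5 and 7 counts in WT (0.30 and 0.41 CPM). Its log2 fold change there was 1.48 (SE 0.43, adjusted p = 0.0113). The exact Poisson intervals of the single libraries, which cover counting error only, were 8.40 to 24.7 and 5.49 to 19.7 counts in KO and 1.62 to 11.7 and 2.81 to 14.4 counts in WT, and they overlap. The call was lost under total counts (0.60, adjusted p = 0.329) and without KO A (0.0526) or WT A (0.0653). In Ter119neg cells Coprs stood at 2.42 and 2.55 CPM in KO, against 2.16 and 1.81 CPM in WT, with a log2 fold change of 0.32 (adjusted p = 0.372).

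In LK cells Coprs stood at 4.44, 10.2 and 4.21 CPM in KO, against 4.84, 19.4 and 3.59 CPM in WT. The B library was the highest of both LK groups. Ribosomal RNA of Rn18s-rs5 took 23.4% of counts in LK KO B and 18.04% in LK WT B, and at most 0.18% in any other LK library. Its part in the Coprs level was not tested. The log2 fold change of Coprs in LK was -0.55 (95% interval -2.16 to 1.06, adjusted p = 0.724) and 0.08 without both B libraries.

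Over the 5 members, 1 of 5 was called in LK cells, the deleted gene, where 1.82% of 13771 genes were called. With the letter as a block 22.7% of the same genes were called, and again only Prmt5 among the members. None of the 4 partners was called there by edgeR, with or without the block, or by DESeq2 or limma-voom, and none had an unadjusted p under 0.05 without the block. The 10 granulocyte and monocyte markers summed to 9360 to 17700 CPM in LK KO and 23200 to 49700 CPM in LK WT libraries, none of them at 0. Of these 10, edgeR called 0 (3 at an unadjusted p under 0.05), limma-voom 0 and DESeq2 2, and edgeR with the letter as a block called 9 lower. Over all genes in LK, DESeq2 called 539 higher and 535 lower. Their part in the members' levels was not tested. In Ter119neg cells 2 of 5 were called, Prmt5 and Wdr77, where 19.1% of 15566 genes were. In Ter119pos cells 4 of 5 were called, all but Riok1, where 54.2% were, so that a call there is common among all genes. The KO effect differed between Ter119pos and Ter119neg for 2 of 5, Prmt5 and Clns1a, against 41.7% of all genes. The LK effect differed from that in Ter119neg for 0 of 5 (0.0361% of all genes) and from that in Ter119pos for 0 of 5 (18.2% of all genes) by edgeR. DESeq2 and limma-voom also called 0 in both. No fit of these contrasts used the letter as a block, so the pairing of LK letters is left out of them. At an unadjusted p under 0.05 the count was 0 against Ter119neg and 2 against Ter119pos, Prmt5 and Clns1a.

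**Figure D2:**
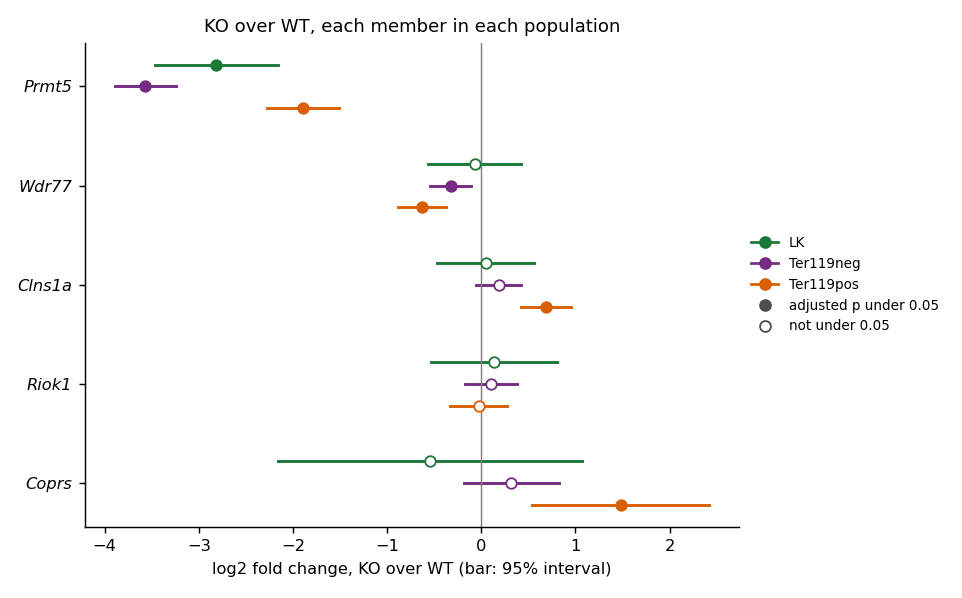
Log2 fold change, KO over WT (x), of each member (y) in LK, Ter119neg and Ter119pos cells, with 95% intervals as bars and filled points where the adjusted p was under 0.05. Prmt5 lies left of 0 in all 3 populations, from -3.57 to -1.89, Wdr77 left of 0 in both fetal fractions, and Clns1a and Coprs right of 0 in Ter119pos under TMM scaling (Clns1a at -0.21 under total counts).

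Between the fetal fractions, the partners other than Riok1 were lower in Ter119pos. Set against Ter119neg, 4 of 5 members were lower in WT cells, and 3 of 5 were lower in KO cells. In WT 76.3% of 15566 genes were called in either direction, 6292 of them lower and 5584 higher. In KO 62.6% were called, 5027 genes lower and 4719 higher. In WT the log2 fold change was -1.72 for Prmt5 (adjusted p = 1.99e-07), -1.33 for Wdr77 (2.0e-07), -1.22 for Clns1a (1.09e-06) and -2.47 for Coprs (3.52e-05). The WT Prmt5 libraries at 13.8 and 17.7 CPM in Ter119pos lay well under the 52.3 and 51.8 CPM in Ter119neg. Riok1 had 0.24 (95% interval -0.05 to 0.53, adjusted p = 0.112) in WT and 0.11 (-0.18 to 0.41, adjusted p = 0.483) in KO cells. In WT it was called higher in Ter119pos with TMM over protein-coding genes (0.35, adjusted p = 0.0377) and with the length trend removed (0.46, adjusted p = 0.00733).

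In KO cells the partners were again lower in Ter119pos than in Ter119neg, by -1.64 for Wdr77 (adjusted p = 1.04e-07), -0.72 for Clns1a (0.000155) and -1.31 for Coprs (0.00228). Prmt5 did not pass the test there, at -0.05 (95% interval -0.46 to 0.36, adjusted p = 0.834). Its difference between the fractions in KO lay above that in WT by the same 1.67 that is given above for the KO effects, since both are the same contrast. Under total counts the median gene stood at -1.35 in WT and -1.86 in KO, Ter119pos against Ter119neg. Prmt5 then had -1.80 and Riok1 -1.61 in KO, and Riok1 had -0.92 in WT, all 3 past the threshold. Relative to the median gene, Prmt5 in KO stood at 0.07 under TMM and 0.06 under total counts, and Riok1 at 0.23 and 0.25 in KO and at 0.43 under both in WT. In Ter119neg cells the 10 macrophage markers summed to 31.4 to 35.2 CPM in KO and 134 to 142 CPM in WT, none at 0 in either group. All 10 were called lower in KO, where 19.1% of all genes were called. Other marker lists also held calls there. Of 12 erythroid markers 6 were higher and 1 lower, and of 6 endothelial markers 1 was higher and 3 lower. Called lower were 3 of 8 progenitor, 1 of 10 granulocyte and monocyte, and 1 of 8 hepatoblast markers. The part of such cell make-up in the members' levels was not tested.

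**Figure D3:**
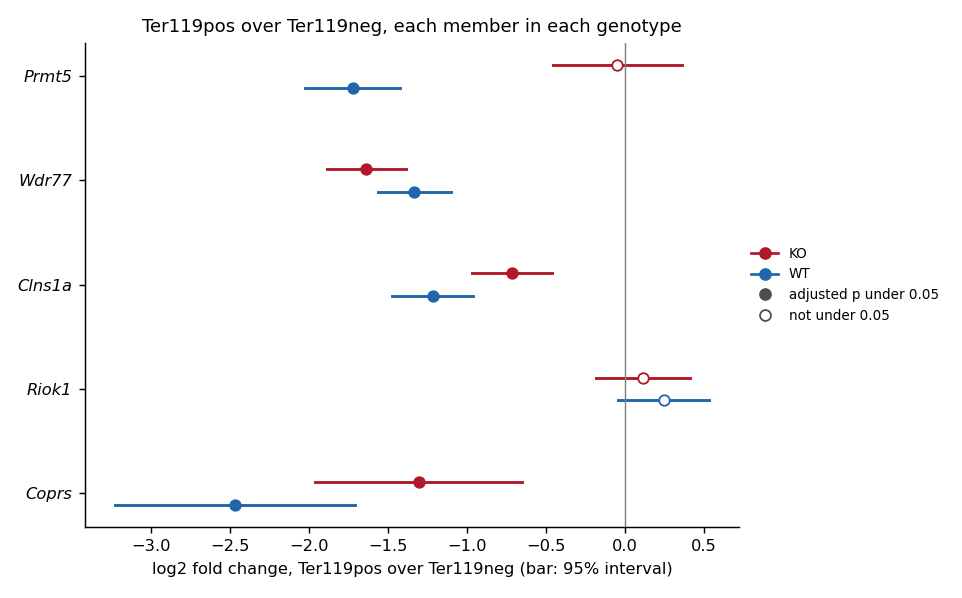
Log2 fold change, Ter119pos over Ter119neg (x), of each member (y) in KO and WT cells, with 95% intervals as bars and filled points where the adjusted p was under 0.05. Wdr77, Clns1a and Coprs lie left of 0 in both genotypes, Prmt5 in WT at -1.72 but at -0.05 in KO, and Riok1 near 0 in both under TMM scaling.

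The levels of the members per length show how the supply of partner transcripts relates to that of the enzyme. On the scale of CPM per kilobase of the longest annotated transcript, the Ter119pos KO levels were 1.59 for Prmt5, 3.75 for Wdr77, 11.1 for Clns1a, 6.68 for Riok1 and 0.51 for Coprs. The Ter119pos WT levels on that scale were 5.85 for Prmt5, 5.81 for Wdr77, 6.90 for Clns1a, 6.83 for Riok1 and 0.18 for Coprs. With this length all but Coprs were close together in Ter119pos WT cells, and in Ter119pos KO cells Clns1a stood highest and Prmt5 above Coprs alone. The first of these depends on the length. Per kilobase of the union of all annotated exons, Riok1 had 1.98 in Ter119pos WT, under the 3.98 of Prmt5, 5.15 of Wdr77 and 5.37 of Clns1a. In Ter119neg KO cells Prmt5 had 1.63, Wdr77 11.7, Clns1a 18.3, Riok1 6.19 and Coprs 1.27 CPM per kilobase. In Ter119neg WT cells Prmt5 was the highest of the 5, at 19.3, with Wdr77 at 14.6, Clns1a at 16.0, Riok1 at 5.77 and Coprs at 1.01. In LK KO cells these levels were 4.29, 21.5, 31.7, 14.51 and 3.22 in the same order of genes, and in LK WT cells 30.1, 22.6, 30.7, 13.2 and 4.73.

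The level of Wdr77 over that of Prmt5, per length, was 5.48, 4.21 and 5.43 in LK KO libraries A, B and C, against 0.62, 0.99 and 0.74 in LK WT. In Ter119neg cells it was 7.49 and 6.82 in KO, against 0.76 and 0.75 in WT. In Ter119pos cells it was 2.84 and 2.00 in KO, against 1.12 and 0.90 in WT. With the longest transcript as the length, Wdr77 was thus above Prmt5 in all 7 KO libraries. It was below Prmt5 in 6 of 7 WT libraries, the exception being Ter119pos WT A, and this WT count depends on the length used. The mean log2 ratio was 2.32 ± 0.22 in LK KO and -0.38 ± 0.34 in LK WT libraries (SD, n = 3 each). The deleted gene is the denominator, so the ratio restates its loss and is given with no test. It was 2.84 ± 0.10 in Ter119neg KO and -0.40 ± 0.02 in Ter119neg WT, and 1.25 ± 0.35 in Ter119pos KO and 0.00 ± 0.22 in Ter119pos WT (SD, n = 2 each). With the union of all annotated exons as the length, the ratio of both genotypes shifts up alike, and the WT groups stand at 0.00 in LK, -0.02 in Ter119neg and 0.38 in Ter119pos.

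**Figure D4:**
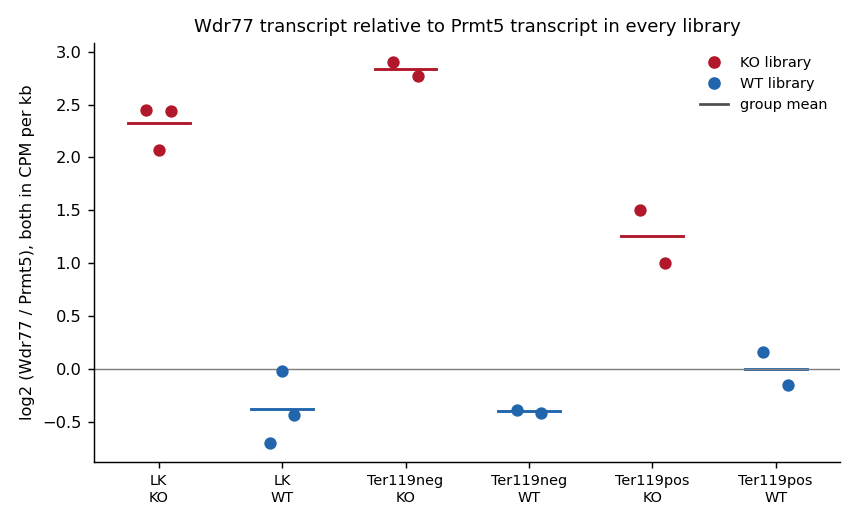
Log2 ratio of Wdr77 to Prmt5, both in CPM per kilobase (y), in every library (points) of the 6 groups (x), KO in red left of WT in blue, with group means as lines. All 7 KO libraries lie above 0, from 1.00 to 2.91, and the 7 WT libraries lie between -0.70 and 0.16.

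On the scale common to all libraries Wdr77 was lowest in Ter119pos, at 22.5 ± 0.9 CPM in KO and 33.9 ± 0.7 CPM in WT, followed by LK at 57.7 ± 6.9 CPM in KO and 61.3 ± 10.3 CPM in WT, and by Ter119neg at 71.6 ± 7.6 CPM in KO and 92.1 ± 2.6 CPM in WT (SD, n = 3 for LK and n = 2 for fetal groups). Among neighbours in this order, LK KO and LK WT overlapped, and so did LK WT and Ter119neg KO. Clns1a was lowest in Ter119pos, at 46.8 ± 1.0 CPM in KO and 28.2 ± 3.2 CPM in WT, and the LK and Ter119neg groups above it, from 58.3 to 78.5 CPM in the mean, overlapped with their neighbours. Riok1 lay between 22.9 and 25.7 CPM in the mean of all 6 groups, and all neighbours overlapped. For Coprs the Ter119pos groups, at 1.40 ± 0.11 CPM in KO and 0.48 ± 0.10 CPM in WT, were the lowest, and the LK groups, at 3.97 ± 2.24 CPM in KO and 5.70 ± 5.14 CPM in WT, overlapped with Ter119neg KO at 3.56 ± 0.14 CPM.

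The genes whose pattern was most like each member were ranked by Pearson r of log2 CPM over the 8 fetal libraries, among 7902 genes with a mean of at least 5 CPM, as a description over libraries that share fraction and genotype. For Prmt5 these were Nrm (r = 0.968), Scarb1 (0.968) and Ift52 (0.966), with r of 0.855, 0.864 and 0.801 over the 6 LK libraries. For Wdr77 they were Bend3 (0.998), Slc38a1 (0.997) and Susd1 (0.996), with r of 0.14, 0.08 and -0.01 over the LK libraries. Clns1a was closest to Id1 (0.997), Smu1 (0.997) and Btk (0.995), with r of -0.373, 0.208 and -0.03 over the LK libraries. Coprs was closest to Clns1a itself (0.997), then to Nip7 (0.996) and Pigs (0.996), with r of 0.183, 0.444 and 0.557 over the LK libraries. For Riok1 the closest genes, Ccdc59 (0.808), Naa30 (0.805) and Dennd4c (0.799), had lower r, and r of 0.203, 0.08 and 0.804 over the LK libraries. Prmt5 and Wdr77 had r = 0.533 over the fetal and 0.297 over the LK libraries.

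Lists of 12, 15 and 6 genes around the enzyme were read by counts. Their log2 fold changes, and the words rose and fell, are under TMM scaling. Under total counts the median gene stood at -0.93 in Ter119pos and -0.30 in Ter119neg, KO over WT. Values of the list genes on that scale are not given here. The direction of changes smaller than these shifts may depend on the scaling, as that of Clns1a did. The first supplies its methyl donor S-adenosylmethionine and clears the by-products. In LK cells 0 of 12 passed the test by edgeR, DESeq2 or limma-voom, with 1 at an unadjusted p under 0.05, and the median log2 fold change was 0.12, against -0.09 over all genes. These fits leave out the pairing of LK letters. With the letter as a block 3 of 12 were called, all higher, where 22.7% of all genes were. In Ter119neg cells 2 rose and 1 fell of 12, near the 19.1% called over all genes, with a median of -0.12 against 0.01 over all genes. Mat2a, the catalytic subunit of the synthetase that makes the donor, fell by 0.37 on the log2 scale (adjusted p = 0.0414). In Ter119pos cells 4 rose and 5 fell of 12, where 54.2% of all genes were called, with a median of 0.09 against -0.04 over all genes. Mat2b, the regulatory subunit of that synthetase, rose by 1.00 (adjusted p = 2.04e-05), while Mat2a fell by 0.40 (adjusted p = 0.0135). Mtr, methionine synthase, fell by 0.78 (adjusted p = 8.71e-05), and Amd1, which diverts the donor to polyamine synthesis, fell by 0.75 (adjusted p = 0.000316). Mtap, which clears methylthioadenosine, an inhibitor of PRMT5, rose by 0.86 (adjusted p = 0.00335).

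The second list held 15 genes of proteins that PRMT5 is known to methylate or to work with on them. In LK cells 0 of 15 passed by edgeR, DESeq2 or limma-voom, with 0 at an unadjusted p under 0.05, and the median was -0.30, against -0.09 over all genes. With the letter as a block 1 was called higher and 1 lower, against 22.7% of all genes called. In Ter119neg cells 1 rose and 2 fell of 15, a share near the 19.1% of all genes, with a median of -0.06 against 0.01. Trp53, the gene of p53, rose by 0.50 on the log2 scale (adjusted p = 0.00822), E2f1, a cell cycle transcription factor, fell by 0.51 (adjusted p = 0.0146), and Lsm10, an Sm-like protein of the U7 snRNP, fell by 0.63 (adjusted p = 0.0146). In Ter119pos cells 5 rose and 3 fell of 15, a share near the 54.2% of all genes, with a median of 0.15 against -0.04. Trp53 rose by 1.49 (adjusted p = 6.4e-07) and Rps10, a small-subunit ribosomal protein, by 2.49 (adjusted p = 2.62e-07). Of the Sm core genes, Snrpd3 rose by 0.52 (adjusted p = 0.00333) and Snrpb by 0.44 (adjusted p = 0.00718) under TMM scaling. Snrpd1 had 0.17 (adjusted p = 0.329). All 3 values are smaller than the shift of the median gene under total counts. E2f1 fell by 1.26 (adjusted p = 5.92e-06).

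The third list held 6 proteins with Tudor domains, a fold that binds methylated arginine or lysine. In LK cells 0 of 6 passed by edgeR and by limma-voom and 2 by DESeq2, with 2 at an unadjusted p under 0.05, and the median was -0.10, against -0.09 over all genes. DESeq2 called 539 genes higher and 535 lower in LK, of the 13771 in the model. With the letter as a block 1 of the 6 was called higher and 1 lower, against 22.7% of all genes called. In both fetal fractions 1 rose and 2 fell of 6, where 19.1% of all genes were called in Ter119neg and 54.2% in Ter119pos, a share near the background in Ter119pos. The medians were -0.16 in Ter119neg and 0.11 in Ter119pos cells, against 0.01 and -0.04 over all genes. Smndc1, a splicing factor, rose by 0.68 in Ter119neg (adjusted p = 0.00597) and by 0.58 in Ter119pos cells (adjusted p = 0.00743), and had 0.89 in LK cells (adjusted p = 0.0603). Uhrf1, which keeps DNA methylation through replication and whose Tudor domains bind methylated lysine, fell by 0.48 in Ter119neg (adjusted p = 0.0244) and by 1.23 in Ter119pos cells (adjusted p = 8.53e-06). Tdrkh, known from the piRNA pathway, fell by 1.47 in Ter119neg cells (adjusted p = 0.00372), and Tdrd3 fell by 0.76 in Ter119pos cells (adjusted p = 0.000535).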

How the data were processed

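A kit for stranded total RNA gave all 14 libraries, from Trizol extracts with Ribo-Zero depletion (fetal liver) or from RNeasy Plus Micro columns (LK), per the labels' protocols. STAR 2.5.3 and RSEM with GRCm38 (mm10) are named in the submitters' processing notes. No source used here gives the RSEM version, the annotation release or the strand setting. The authors deposited RSEM expected counts. Of the 45706 rows, 45143 matched GENCODE M21.

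Expected counts were rounded and tested in R 4.3.3 with edgeR 4.0.16 (TMM, filterByExpr, quasi-likelihood F test, Benjamini-Hochberg over all genes tested, threshold 0.05). One model held the 8 fetal libraries, another the 6 LK libraries, and a further model all 14 for LK effects minus fetal effects. That last model was not fitted with a letter block. Intervals are at 95%. SEs were taken as the log2 fold change over the root of the F statistic. Likeness used log2 CPM with a prior count of 2. Members and gene lists were chosen with earlier results of these data known. Pathway genes were named as up to 4 per list and comparison with the smallest p, and 1 gene that the rule names is not reported here. Mtap, Mat2a, Snrpd3, Snrpb and Snrpd1 in Ter119pos fall outside that rule and were chosen after their values were seen.

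LK libraries with the same letter deviated together (r of 0.604, 0.719 and 0.73), and a fit with the letter as a block was run beside the main one. Mouse numbers in the labels pair libraries across fractions, and a mouse block was fitted there. Same-mouse r was 0.155 for mice 1 and 2 and -0.0678 for mouse 4, and with 2 libraries a group deviations mirror each other. Alternatives were RLE and total count scaling, TMM over protein-coding genes, DESeq2 1.42.0, limma-voom (limma 3.58.1), no filter on low counts, removal of a length trend (lowess span 0.3) or of globin genes, each library left out, and single fractions. In a group left with 1 library, that library was assumed to vary like the others. The code was tested on simulated data. Promoters are from RefSeq.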

Additional observations from a re-analysis of the deposited data

Results flagged for a closer look

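The KO effect on Prmt5 differed between the fetal fractions by 1.67 on the log2 scale, Ter119pos minus Ter119neg, in a test of the difference itself (edgeR, adjusted p = 0.000174). The same test gave 0.50 for Clns1a (adjusted p = 0.0277), a call that was lost with the mouse as a block. With 2 or 3 libraries a group, no test of a single library against the rest of its group was made.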

How the results depend on the processing

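Of 624 alternative values over 40 member results, 556 kept their direction and their side of the threshold, 16 lost it, 7 gained it and 45 turned direction. Where a cause is not given, it was not tested. Prmt5 stayed called in both fetal fractions under all 14 alternatives run in each. With the letter as a replicate block no member call changed, in LK (Prmt5 -2.78) or in either fetal fraction. The fetal letters did not pair libraries (r of 0.00472 and -0.0288). The mouse block left 1 of 5 members with a KO effect that differed between the fractions, Prmt5, and changed no other member call. LK cells limit the precision: the number of genes called there was 250, and it was 3129 with the letter block, 1074 by DESeq2, 71 without both B libraries and 14 without both C libraries. In LK the members called went to 0 without both C libraries, and to between 0 and 1 with each library left out. In Ter119neg they were 1 with TMM over protein-coding genes or with that fraction alone, and 1 to 2 with each library left out. The count ranged from 1 to 2 for the KO effect in Ter119pos minus that in Ter119neg, and from 0 to 1 for that in LK minus that in Ter119pos, with each library left out.

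Total count scaling, which moves the median gene, turned these log2 differences, KO over WT, and their contrasts: Wdr77 in LK 0.073, Clns1a -0.13 and Riok1 -0.22 in Ter119neg, Clns1a -0.21 in Ter119pos and -0.076 in Ter119pos minus Ter119neg, Clns1a 0.31 in LK minus Ter119neg, and Prmt5 0.018 and Clns1a 0.39 in LK minus Ter119pos. It put Riok1 at -0.92 in WT and -1.61 in KO, Ter119pos against Ter119neg. In KO 5 of 5 members were then called, where 12270 of 15566 genes were called lower and 921 higher. Without both B libraries, Wdr77 had 0.064 and Coprs 0.079 in LK. Riok1 in Ter119pos KO over WT had 0.033 with TMM over protein-coding genes, 0.0035 with no low count filter, 0.080 without globin genes and 0.15 with that fraction alone, and its difference between the fractions was 0.0050 without globin genes. Prmt5 in KO, Ter119pos against Ter119neg, had 0.0091 under RLE, 0.10 with TMM over protein-coding genes, 0.011 by DESeq2, 0.14 with the length trend removed and 0.073 without globin genes.

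With each library left out in turn, values near 0 crossed it. In LK, KO over WT, Wdr77 ranged from -0.17 to 0.061, Clns1a from -0.086 to 0.17, Riok1 from -0.061 to 0.39 and Coprs from -1.08 to 0.56. Riok1 ranged from -0.088 to 0.20 in Ter119neg, from -0.18 to 0.10 in Ter119pos, from -0.28 to 0.18 in Ter119pos minus Ter119neg, from -0.17 to 0.29 in LK minus Ter119neg and from -0.12 to 0.42 in LK minus Ter119pos. Coprs ranged from -1.38 to 0.23 in LK minus Ter119neg. In KO, Ter119pos against Ter119neg, Prmt5 ranged from -0.27 to 0.16 and Riok1 from -0.044 to 0.36. With union exon length the log2 ratio of Wdr77 to Prmt5 was 2.70 in LK KO and -0.00028 in LK WT, 3.22 in Ter119neg KO and -0.020 in Ter119neg WT, and 1.64 in Ter119pos KO and 0.38 in Ter119pos WT.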
